A study of Mus musculus with 4 samples.

Results

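The 1700-series symbols are placeholder names given to mouse genes first seen as full-length cDNA clones of RIKEN's adult testis library, and the abundant ones were followed here in testes of Fam46c KO and WT mice. A transcript was included when its symbol had the 1700-series form and its mean over the 2 WT libraries was at least 10 FPKM, the fragments of a transcript scaled to its length and to the mapped fragments of the library. This rule took 221 of the 305 symbols of the series, out of 22552 symbols in all. The WT level therefore chose the transcripts, and their levels are given as a description.

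The 4 libraries came from testes of adult male mice of DBA/C57 F1 background, 2 of genotype Fam46c KO and 2 WT. FAM46C is a noncanonical poly(A) polymerase, which adds adenosine tails to RNA. The labels do not say how the gene was mutated, nor if each library was made from its own animal. The p-values therefore set the difference between genotypes against the spread between libraries of 1 genotype, and that spread may be technical. Fam46c itself stood at 131 and 129.9 FPKM in the KO libraries, against 236 and 134 FPKM in the WT libraries (limma, Benjamini-Hochberg adjusted p = 1.00), so its transcript level does not check the labels.

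Most genes of the adult testis that carry such placeholder names are active in male germ cells, above all in spermatids, the haploid cells that build the sperm tail, the acrosome and a compact nucleus. Spermatids store many messenger RNAs for later translation, and poly(A) tail length is one of the controls on that storage. The testis also transcribes many long noncoding RNAs (lncRNAs), RNAs without a recognised protein. Of the 221 symbols, 219 had a single match in RefSeq (GRCm38.p6), 137 by symbol and 82 as an older name of a gene named otherwise now. RefSeq classed 149 as protein coding, 61 as lncRNA and 9 as pseudogenes. They were on 20 chromosomes, with 23 on chromosome 2, 19 on chromosome 1 and 8 on the X chromosome.

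RefSeq promoter windows, from 250 bases before to 50 bases after a start site, were at hand for 176 of the genes. Windows of 4 genes are shown, chosen because their values are discussed further on. 1700072B07Rik (chr9:58370254-58370553, plus strand) and 1700025N23Rik (chr6:39067537-39067836, minus strand) are lncRNAs with low p in the genotype comparison. H2bl1, the present name of 1700024P04Rik (chr13:98984516-98984815, minus strand), and 1700092M07Rik, also known as Tex54 (chr19:8740468-8740767, plus strand), are protein-coding genes of the highest levels. All coordinates are GRCm38.p6, and capitals mark the letters of the motifs searched.
1700072B07Rik: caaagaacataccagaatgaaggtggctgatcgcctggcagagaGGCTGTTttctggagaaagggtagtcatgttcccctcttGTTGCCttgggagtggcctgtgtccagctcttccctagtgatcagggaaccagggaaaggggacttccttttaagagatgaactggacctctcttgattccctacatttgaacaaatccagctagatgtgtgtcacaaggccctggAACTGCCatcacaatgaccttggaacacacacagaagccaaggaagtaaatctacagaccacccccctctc
1700025N23Rik: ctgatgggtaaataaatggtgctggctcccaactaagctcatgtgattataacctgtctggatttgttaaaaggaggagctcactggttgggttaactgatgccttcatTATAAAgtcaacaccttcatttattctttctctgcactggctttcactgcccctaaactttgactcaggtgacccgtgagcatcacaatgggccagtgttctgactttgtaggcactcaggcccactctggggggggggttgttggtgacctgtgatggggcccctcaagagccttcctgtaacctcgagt
H2bl1: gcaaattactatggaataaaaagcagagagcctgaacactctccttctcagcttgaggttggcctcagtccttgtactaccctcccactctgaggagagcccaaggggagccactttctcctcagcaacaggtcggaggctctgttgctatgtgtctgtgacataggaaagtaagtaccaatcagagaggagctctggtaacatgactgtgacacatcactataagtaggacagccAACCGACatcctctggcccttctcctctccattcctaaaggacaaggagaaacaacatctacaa
1700092M07Rik: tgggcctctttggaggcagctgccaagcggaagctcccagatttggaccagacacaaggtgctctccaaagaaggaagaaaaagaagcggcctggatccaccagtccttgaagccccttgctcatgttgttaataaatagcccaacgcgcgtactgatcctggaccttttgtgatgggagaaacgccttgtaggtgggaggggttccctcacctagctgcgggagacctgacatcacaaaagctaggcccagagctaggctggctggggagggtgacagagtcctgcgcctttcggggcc
The motifs were searched on both strands. The cAMP response element TGACGTCA, which CREM binds in spermatids, was present in 1.71% of the 176 windows, against 1.88% of all 27025 promoters and 3.80% of the 4423 other genes with a WT mean of at least 10 FPKM. The X-box core GTTGCC, to which RFX factors bind at ciliary genes, was present in 19.9%, against 12.7% of all promoters and 16.3% of those 4423 genes. The MYB core AACNGNC was present in 43.2%, 32.8% and 38.0% in the same order, and TATAAA in 13.1%, 14.2% and 7.03%. In the windows shown, 1700072B07Rik held GTTGCC 167 bases before its start (-167), and the window of 1700092M07Rik held none of the 4 motifs. A match of letters is not evidence that a factor binds there.

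Levels spanned more than 2 orders of magnitude. The mean over the 2 libraries ran from 10.1 to 2593 FPKM in KO testes, with a median of 102, and from 10.005 to 2470.1 FPKM in WT testes, with a median of 99.5. Summed, the 221 transcripts were 7.34% and 7.51% of all FPKM in KO, and 7.24% and 7.12% in WT. The 12 highest made up 28.3% of the summed level in KO and 28.2% in WT, and 11 transcripts were in the top 12 of both genotypes. Of the 500 symbols with the highest mean, 72 were 1700-series transcripts in KO and 71 in WT. The plot of levels by rank shows the 4 libraries along 1 curve.

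**Figure D1:**
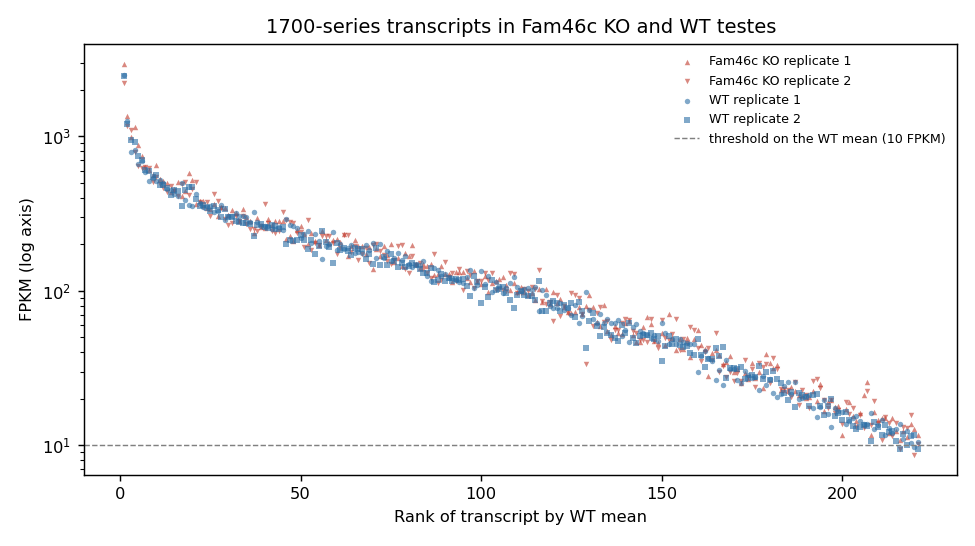
FPKM (log axis) of each 1700-series transcript in each Fam46c KO library (triangles pointing up and down) and each WT library (circles and squares), ordered by WT mean from the highest. The 4 libraries follow one another from WT means of 2470.1 FPKM down to the threshold of 10 FPKM, and 1700001F09Rik falls below the curve in replicate 2 of each genotype, at 33.4 FPKM in KO and 42.7 FPKM in WT.

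The highest level belonged to the lncRNA 1700027A15Rik, with 2956 and 2229 FPKM in the KO libraries and 2496 and 2444 FPKM in the WT libraries. One KO library was above and the other below both WT libraries. In RefSeq this gene begins 136 bases beyond Tnp1, the gene of transition protein 1, which replaces histones in spermatid nuclei. GENCODE M21 lists it as antisense, with 40 exon bases shared with Tnp1, and 114 bases of its promoter window lie inside Tnp1. Tnp1 stood at 16320 and 13440 FPKM in KO and at 9507 and 13716 FPKM in WT. Whether counting used strand is not known from the sources, so fragments of the shared bases cannot be told apart.

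The next 5 were protein-coding genes with short coding sequences. Fam229b (1700025K23Rik) was at 1361 and 1171 FPKM in KO, against 1257 and 1206 FPKM in WT. 1700092M07Rik was at 992 and 1098 FPKM in KO, against 792 and 948 FPKM in WT, so both KO libraries were above both WT libraries. Its log2 fold change was 0.27 with an SE of 0.14, and limma gave an adjusted p of 1.00. 1700015G11Rik, also known as Ccdc179, was at 1148 and 797 FPKM in KO and at 819 and 913 FPKM in WT, a spread that covered the WT values. 1700042G07Rik, also known as P3r3urf, was at 873 and 645 FPKM in KO and at 661 and 751 FPKM in WT. 1700029F12Rik was at 741 and 628 FPKM in KO and at 696 and 701 FPKM in WT. In the last 3 genes the libraries of the 2 genotypes overlapped, and KO replicate 1 was the highest of the 4.

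The rest of the 12 highest stood between 465 and 654 FPKM in every library. 1700003F12Rik (636 and 629 FPKM in KO, 586 and 607 FPKM in WT) and the pseudogene 1700019M22Rik (601 and 621 FPKM in KO, 516 and 600.2 FPKM in WT) had both KO libraries above both WT libraries. Their log2 fold changes were 0.08 and 0.14, each with an SE of 0.13. The lncRNA 1700008K24Rik averaged 535 ± 37.2 FPKM in KO and 542 ± 2.73 FPKM in WT (SD, n = 2 each). H2bl1, a testis variant of histone H2B, was at 654 and 544 FPKM in KO and at 512 and 562 FPKM in WT. 1700009N14Rik averaged 511 ± 29.0 FPKM in KO and 503 ± 28.7 FPKM in WT. Catsperz (1700019N12Rik), an accessory subunit of the sperm calcium channel CatSper, was at 515 and 465 FPKM in KO and at 496 and 483 FPKM in WT. In these last 4 transcripts the groups overlapped, and all 12 had a limma adjusted p of 1.00.

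At the threshold, the 3 lowest included transcripts were 1700066M21Rik (11.7 and 10.2 FPKM in KO, 10.5 and 9.49 FPKM in WT), Prss56 (1700027L20Rik, a serine protease gene; 12.6 and 8.62 FPKM in KO, 9.79 and 11.6 FPKM in WT) and 1700025N23Rik (13.7 and 15.8 FPKM in KO, 10.3 and 11.5 FPKM in WT). Just outside it were 1700052K11Rik (12.6 and 11.04 FPKM in KO, 9.88 and 10.1 FPKM in WT), 1700025C18Rik (13.6 and 13.1 FPKM in KO, 9.61 and 10.05 FPKM in WT) and 1700071K01Rik (10.8 and 14.3 FPKM in KO, 7.75 and 11.2 FPKM in WT). Of the included transcripts 0 had a KO mean under 10 FPKM, while 7 others of the series had a KO mean of at least 10 FPKM. One symbol, the lncRNA 1700110I01Rik, stood on 3 rows, which were summed to 34.3 and 31.0 FPKM in KO and 27.1 and 28.3 FPKM in WT.

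Coding sequences among the 221 transcripts were short. The longest coding sequence in GENCODE M21, known for 153 of them, had a median of 654 bases and ranged from 213 bases in 1700015G11Rik to 9105 bases in Fam186a (1700030F18Rik). Under 600 bases were 39.9% of these coding sequences, against 16.1% of 149 in the other adult testis series of RIKEN (the 49-series, symbols with 6 prefixes that begin 49) and 16.2% of 4938 in symbols outside the RIKEN series, all with a WT mean of at least 10 FPKM. The median coding length was 1119 bases in those other testis series and 1257 bases outside the RIKEN series. The 61 genes with under 600 coding bases had a median level of 177 FPKM in KO and 164 FPKM in WT, and the 92 longer ones 114 FPKM in KO and 103 FPKM in WT. Protein-coding genes had a median of 122 FPKM in KO and 115 FPKM in WT, and lncRNAs 50.8 FPKM in KO and 47.9 FPKM in WT. These are descriptions of genes chosen by level, and FPKM of short transcripts rest on fewer fragments and on the length the authors' software assumed. The whole set had a median level far above that of the other testis series, which was 34.7 FPKM in KO and 33.6 FPKM in WT over 194 symbols.

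Between the genotypes, 0 of the 221 transcripts passed limma at a Benjamini-Hochberg adjusted p under 0.05, against 0.114% of the 12258 symbols tested (0.0245% higher and 0.0897% lower in KO). At an unadjusted p under 0.05 there were 12, all higher in KO, against 2.02% of all tested symbols (0.914% higher and 1.11% lower in KO). All 221 passed the filter on low values, which asked for 1 FPKM or more on average. The smallest adjusted p was 0.0948, for 1700072B07Rik. Log2 fold changes of KO over WT, on the scale of FPKM + 1, ran from -0.33 to 0.78, and 190 of the 221 (86.0%) lay within 0.25 of 0. A change of at least 2-fold was seen in 0 of them.

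Small positive values prevailed. Of the 221 log2 fold changes 162 (73.3%) were above 0, against 47.7% of all tested symbols and 48.95% of the 5689 symbols with a WT mean of at least 10 FPKM. The median was 0.06, against -0.01 over all tested symbols. Both KO libraries were above both WT libraries in 45 transcripts (20.4%, against 9.47% of all tested) and below both in 7 (3.17%, against 10.6%), so that the groups were apart in 23.5%, against 20.1% of all tested. The WT values that chose the transcripts are also one side of this contrast, so these counts are read as a description. Chosen on the KO mean instead, the set had 228 transcripts, a median of 0.07 and 15 at an unadjusted p under 0.05. The share above 0 depended on the scaling and on single libraries: it was 61.1% after scaling to equal totals, against 37.3% of all tested, and 60.2% without WT replicate 2 or without KO replicate 1, against 37.9% and 46.4% of all tested.

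**Figure D2:**
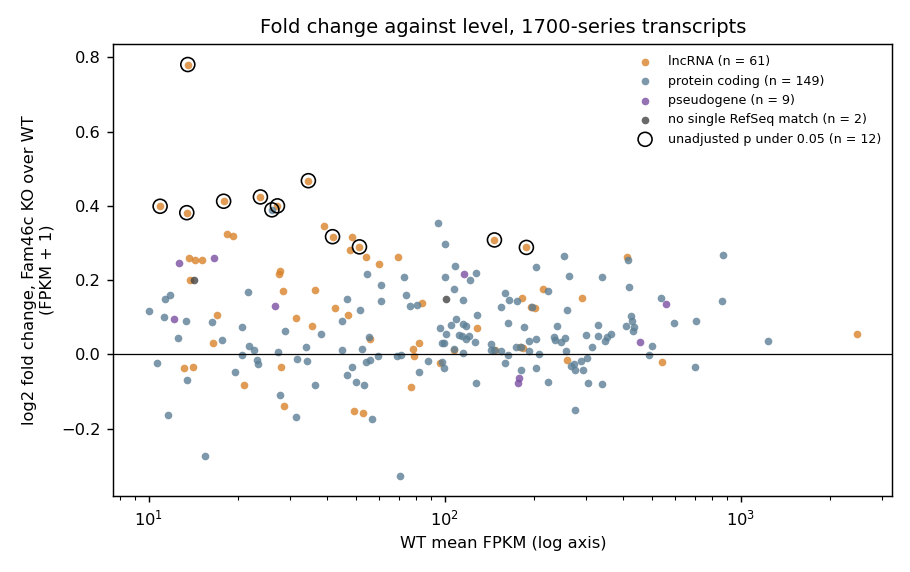
Log2 fold change of Fam46c KO over WT (FPKM + 1) against WT mean FPKM (log axis) for the 221 transcripts, coloured by RefSeq class, with rings around the 12 at an unadjusted p under 0.05. All rings lie above 0 and 11 of the 12 surround lncRNAs, while the transcripts above 200 FPKM stay between -0.15 and 0.27.

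Split by RefSeq class, a choice made after the values were seen, lncRNAs had the higher median. Of the 61 lncRNAs, 49 (80.3%) had a log2 fold change above 0, with a median of 0.15, and 11 (18.03%) had an unadjusted p under 0.05. Of the 149 protein-coding genes, 104 (69.8%) were above 0, with a median of 0.04, and 1 (0.671%) had an unadjusted p under 0.05. The share at an unadjusted p under 0.05 was 2.02% over all tested symbols. Among the 43 lncRNAs of the 49-series it was 9.30%. These counts of 11 and 1 depended on the libraries used, the protein-coding count more so than the lncRNA count. Without KO replicate 1 they were 12 lncRNAs and 15 protein-coding genes higher in KO, with 2 protein-coding genes lower. Without KO replicate 2 they were 14 and 6 higher with 1 protein-coding gene lower, without WT replicate 2 they were 12 and 5 higher with 2 protein-coding genes lower, and without WT replicate 1 they were 5 and 3 higher. The 9 pseudogenes had a median of 0.13, with 7 above 0. Both KO libraries were above both WT libraries for 34.4% of lncRNAs and 13.4% of protein-coding genes, against 9.47% of all tested symbols and 37.2% of the 43 lncRNAs of the 49-series. With exon bases shared with no other gene, 45 lncRNAs remained, with 38 above 0, a median of 0.17 and 9 at an unadjusted p under 0.05. The difference between the classes was not tested. Class was not separated from level, which was lower in lncRNAs. The 31 transcripts with a WT mean of 10 to 20 FPKM had a median of 0.12, with both KO libraries above both WT libraries in 41.9%. For the 57 from 200 FPKM up these were 0.05 and 17.5%. The 3 bins between them had medians of 0.07, 0.03 and 0.06 with rising level.

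The lncRNA median was above 0 in each pair of a KO and a WT library. These pairs reuse the same 2 KO and 2 WT libraries, so they are not independent of each other. The median log2 difference over the lncRNAs was 0.15 and 0.17 for KO replicate 1 over WT replicates 1 and 2, and 0.08 and 0.12 for KO replicate 2 over the same libraries. Over the protein-coding genes these medians were 0.02, 0.10, -0.01 and 0.07, with 70 of 149 (47.0%) above 0 in KO replicate 2 over WT replicate 1. Over all tested symbols they were -0.03, 0.04, -0.06 and 0.03. Without 1 library the lncRNA median ran from 0.10 to 0.19, and after scaling to equal totals it was 0.12, with 42 of 61 above 0. The summed level of 6 sperm chromatin genes, among them the protamines, was 67426 and 54499 FPKM in KO and 46114 and 60820 FPKM in WT, with groups that overlapped. Of these 6 genes, 5 had a log2 fold change above 0, with a median of 0.19 and 0 called. Other lists of spermatid markers had medians just below 0. These were -0.02 over 16 genes of spermatid structure and -0.02 over 10 spermatid regulators, with 0 called in each. The summed level of 8 Leydig cell genes was 637 and 310 FPKM in KO and 1281 and 1395 FPKM in WT. Insl3, a Leydig cell hormone and the 1 gene called lower, carried the difference between these sums. It was at 379 and 189 FPKM in KO and 1099.6 and 1136 FPKM in WT. Without Insl3 the other 7 genes summed to 258 and 121 FPKM in KO and 181 and 259 FPKM in WT, which overlapped. Yet of the 6 of them that were tested, only 1 had a log2 fold change above 0, and their median was -0.36. The lowest was Hsd3b6, at -1.84 (limma adjusted p = 0.203). The summed level of 6 blood genes was 12.6 and 8.73 FPKM in KO and 50.6 and 40.7 FPKM in WT, with 2 called lower. The part of these markers in the lncRNA values was not tested. In these whole testes fewer cells of a type and less RNA per cell cannot be told apart.

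The lowest p belonged to 1700072B07Rik, a lncRNA on chromosome 9 from 58370504 to 58374183 in GRCm38.p6. Its level was 25.6 and 22.5 FPKM in KO, against 13.8 and 13.3 FPKM in WT, so the KO libraries stood well above the WT libraries. Its log2 fold change was 0.78 with an SE of 0.14, at a limma unadjusted p of 0.000131 and an adjusted p of 0.0948. The next 5 lncRNAs had log2 fold changes of 0.38 to 0.42 and a limma adjusted p of 1.00 each. 1700044K03Rik was at 24.98 and 23.3 FPKM in KO, against 17.8 and 17.99 FPKM in WT. 1700063D05Rik was at 33.2 and 30.9 FPKM in KO, against 20.6 and 27.0 FPKM in WT. The 2 KO libraries of both were close together, and WT replicate 1 was the lowest.

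1700025M24Rik, which shares 172 exon bases with Gm34411 on the other strand, was at 38.9 and 33.4 FPKM in KO, against 24.7 and 29.7 FPKM in WT. 1700065J11Rik was at 16.4 and 19.3 FPKM in KO, against 12.8 and 14.1 FPKM in WT. 1700025N23Rik, given above at the threshold, completed the 5. At higher levels, 1700052I22Rik was at 233 and 228 FPKM in KO, against 188 and 189.6 FPKM in WT, with a log2 fold change of 0.29 (SE 0.12). 1700010K23Rik, which overlaps Cadm2 on the other strand, was at 197 and 169 FPKM in KO, against 143 and 151 FPKM in WT, a log2 fold change of 0.31 (SE 0.13). Cadm2 itself was at 0.186 to 0.306 FPKM over the 4 libraries. Tex45 (1700019B03Rik), the 1 protein-coding gene of the 12, was at 31.4 and 36.8 FPKM in KO, against 21.8 and 30.3 FPKM in WT. The groups did not overlap in any of these. The lncRNAs 1700007P06Rik (48.8 and 55.6 FPKM in KO, 45.2 and 38.3 FPKM in WT) and 1700109G14Rik (60.96 and 65.3 FPKM in KO, 49.5 and 53.5 FPKM in WT) were apart as well. Of the 12 transcripts only Tmem132cos (1700085B03Rik) overlapped, with 41.6 and 53.1 FPKM in KO and 26.5 and 42.7 FPKM in WT. Promoter windows were at hand for 8 of the 12, of which 1 held GTTGCC, 1 the MYB core, 2 TATAAA and 0 TGACGTCA. Over all promoters the shares were 12.7%, 32.8%, 14.2% and 1.88% in the same order, and 8 windows are too few to compare with them.

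**Figure D3:**
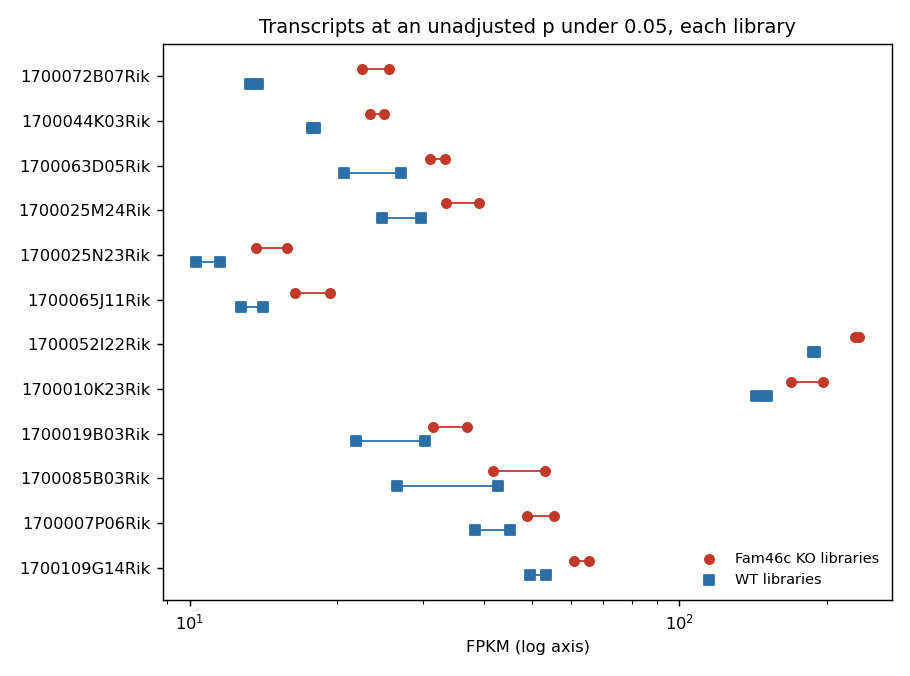
FPKM (log axis) in each library of the 12 transcripts with an unadjusted p under 0.05 in limma, ordered by p from the top, with Fam46c KO libraries (circles) above WT libraries (squares) in each row. The groups are apart in 11 rows, and the gap is widest for 1700072B07Rik, at 22.5 to 25.6 FPKM in KO and 13.3 to 13.8 FPKM in WT.

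Lower values in KO were few and small. Of the 7 transcripts with both KO libraries below both WT libraries, the smallest p belonged to Cfap77 (1700101E01Rik), a protein of cilia and flagella. Cfap77 was at 11.7 and 13.7 FPKM in KO, against 16.5 and 14.6 FPKM in WT, with a log2 fold change of -0.27, an SE of 0.15 and a limma adjusted p of 1.00 (unadjusted p = 0.0909). 1700067K01Rik averaged 27.8 ± 2.54 FPKM in KO and 31.3 ± 0.244 FPKM in WT (SD, n = 2 each). The lncRNA 1700001L05Rik was at 46.8 and 47.7 FPKM in KO and 54.5 and 51.1 FPKM in WT. Hoxd3os1 (1700109F18Rik), an antisense RNA of the Hoxd cluster, was at 46.1 and 42.4 FPKM in KO and 47.3 and 51.3 FPKM in WT. 1700008O03Rik, which shares exon bases with Shank1, was at 27.3 and 24.0 FPKM in KO and at 27.7 FPKM in both WT libraries, and 1700018L02Rik, which shares exon bases with Ak3, was at 72.7 and 72.2 FPKM in KO and at 77.1 FPKM in both WT libraries. In these 5 the log2 fold change lay between -0.17 and -0.09.

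Outside the 1700-series, the other adult testis series had 122 of 194 log2 fold changes above 0 (62.9%), with a median of 0.05, and its 43 lncRNAs had a median of 0.11, with 31 above 0. The remaining 43 lncRNAs with a WT mean of at least 10 FPKM had a median of 0.04 (58.1% above 0), and the remaining 5139 protein-coding genes one of -0.01 (47.1% above 0). The 211 symbols of other RIKEN series had a median of 0.01. The differences between these sets were not tested. All these sets share the same 4 libraries.

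**Figure D4:**
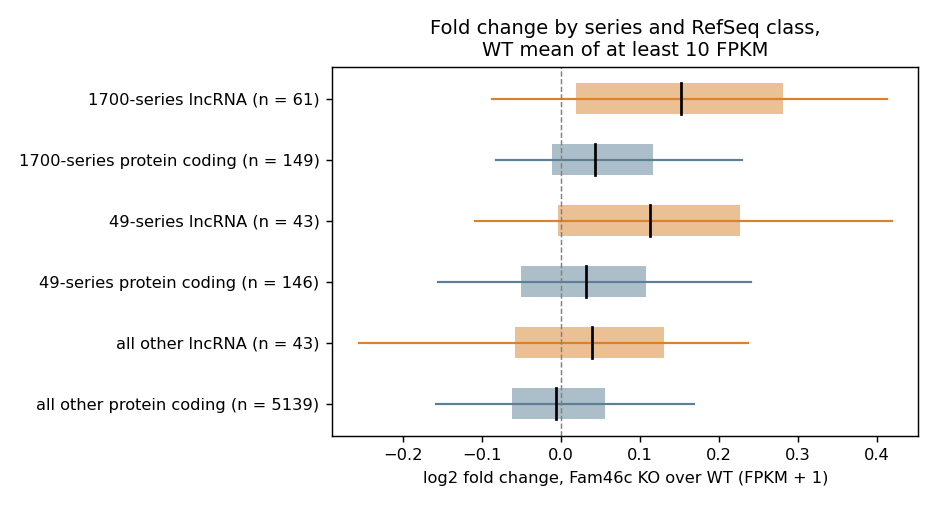
Log2 fold change of Fam46c KO over WT (FPKM + 1) for lncRNA and protein-coding genes of the 1700-series, of the other adult testis series of RIKEN and of all other symbols, all with a WT mean of at least 10 FPKM. Black lines mark medians, boxes the quartiles and thin lines the range from the 5th to the 95th percentile; medians are 0.15 and 0.04 in the 1700-series, 0.11 and 0.03 in the other testis series and 0.04 and -0.01 elsewhere.

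Of 12 genes whose present names or known roles point to the sperm flagellum or to cilia, 0 were called, against 0.114% of all tested symbols, and 7 were above 0 (58.3%, against 47.7%), with a median log2 fold change of 0.01. The groups were apart in 25% of the 12, against 20.1% of all tested symbols. Cfap206 (1700003M02Rik), an axonemal protein, was at 285 and 282 FPKM in KO and at 305 and 279 FPKM in WT. Cfap97d1 (1700006E09Rik) was at 145 and 198 FPKM in KO and at 159 and 152 FPKM in WT. Spaca9 (1700026L06Rik), a microtubule-binding sperm protein, was at 439 and 507 FPKM in KO and at 385 and 451 FPKM in WT. The groups overlapped in all 3. Pifo (1700027A23Rik), a ciliary protein, was the 1 of the 12 with both KO libraries above both WT libraries, at 125 and 131 FPKM in KO and 111 and 105 FPKM in WT (limma unadjusted p = 0.0799, adjusted p = 1.00). Both KO libraries were below both WT libraries in Cfap77, given above, and in Cfap157 (1700019L03Rik), at 47.6 FPKM in each KO library and 51.9 and 48.6 FPKM in the WT libraries. Ift43, of intraflagellar transport complex A, averaged 157 ± 25.1 FPKM in KO and 155 ± 16.9 FPKM in WT (SD, n = 2 each).

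For 5 genes with known roles in the sperm head, its junction with the tail, fusion with the egg or spermatid kinases, 0 were called and the groups were apart in 0, against 20.1% of all tested symbols, a share too low to read anything from 5 genes. Spatc1l (1700027D21Rik), known in mice for the integrity of the head-tail junction, was at 93.6 and 99.2 FPKM in KO and at 104 and 92.1 FPKM in WT, a log2 fold change of -0.02 (SE 0.13). Llcfc1 (1700034O15Rik), needed for sperm-egg fusion, was at 351 and 343 FPKM in KO and at 359 and 300.2 FPKM in WT. Fam209 (1700029J11Rik), a gene of acrosome formation, was at 211 and 275 FPKM in KO and at 262 and 210 FPKM in WT. Spata46 (1700015E13Rik), known for the shaping of the sperm head, was at 226 and 280 FPKM in KO and at 266 and 214 FPKM in WT. Tsacc (1700021C14Rik), a co-chaperone of testis-specific serine kinases, was at 505 and 413 FPKM in KO and at 414 and 445 FPKM in WT. These genes were named for their roles rather than by the rule for named genes, Spata46 excepted.

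In the nucleus, H2ap (1700054O13Rik) and H2al1m (1700012L04Rik), both relatives of histone H2A, were at 283 and 237 FPKM and at 78.1 and 89.4 FPKM in KO, against 253 and 262 FPKM and 61.6 and 84.6 FPKM in WT. H2al1m has near-identical copies, so its value is uncertain. The meiotic genes Syce3 (1700007E06Rik), of the synaptonemal complex, and Shcbp1l (1700012A16Rik), of the meiotic spindle, had log2 fold changes of 0.05 (SE 0.13) and 0.18 (SE 0.14). Among 11 genes named for testis expression or spermatogenesis, 10 were above 0 (90.9%), with a median of 0.13. The share above 0 was 47.7% of all tested symbols and 69.8% of the 149 protein-coding genes of the set. Of the 11, 1 (9.09%), Tex45, had an unadjusted p under 0.05, against 2.02% of all tested symbols. Tex33 (1700061J05Rik) was at 366 and 507 FPKM in KO and at 423 and 395 FPKM in WT, Tex48 (1700018C11Rik) at 341 and 305 FPKM in KO and at 354 and 328 FPKM in WT, and Spata45 (1700022P22Rik) at 409 and 494 FPKM in KO and at 498 and 352 FPKM in WT. Enzyme genes such as Nudt16l2 (202 and 149 FPKM in KO, 155 and 172 FPKM in WT) and Armt1 (42.2 and 48.6 FPKM in KO, 46.4 and 43.4 FPKM in WT) had a median of -0.01 over 6 genes. Oip5os1 (1700020I14Rik), the conserved lncRNA also called Cyrano, was at 17.6 and 16.1 FPKM in KO and at 17.5 and 15.5 FPKM in WT. It was chosen for its role and its groups overlapped.

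Libraries of 1 genotype differed from each other about as much as libraries of different genotypes. The SD of the log2 difference over the 221 transcripts was 0.27 between the KO libraries and 0.27 between the WT libraries, and 0.18 to 0.27 between a KO and a WT library. The least difference was between KO replicate 1 and WT replicate 2. The widest gap within a group belonged to 1700001F09Rik, with 79.3 and 33.4 FPKM in KO replicates 1 and 2 and 98.2 and 42.7 FPKM in WT replicates 1 and 2. Its log2 fold change was the lowest of the 221, -0.33 (SE 0.38). 1700067G17Rik (21.1 and 12.9 FPKM in KO, 13.7 and 13.5 FPKM in WT) and 1700056E22Rik (41.4 and 65.5 FPKM in KO, 45.0 and 48.7 FPKM in WT) differed mainly between the KO libraries. 1700017J07Rik (53.1 and 64.2 FPKM in KO, 62.2 and 35.0 FPKM in WT) and 1700008P02Rik (33.5 and 32.6 FPKM in KO, 24.4 and 43.4 FPKM in WT) differed mainly between the WT libraries.

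Exons of 38 of the transcripts overlap a gene on the other strand in GENCODE M21, and those of 10 overlap a gene on the same strand. Their levels differed from pair to pair. Necab3, which shares 71 exon bases with 1700003F12Rik, was at 9.71 and 9.79 FPKM in KO and at 10.1 and 8.12 FPKM in WT. All 546 exon bases of the lncRNA 1700120K04Rik lie opposite Rnf40, a ubiquitin ligase gene. This lncRNA was at 103 and 81.9 FPKM in KO and at 93.3 and 74.0 FPKM in WT, and Rnf40 at 55.8 and 40.4 FPKM in KO and at 49.1 and 49.2 FPKM in WT. As the strand setting is unknown, fragments of this lncRNA cannot be told apart from those of Rnf40. Fyttd1, opposite 1700021K19Rik, was the higher of its pair, with 65.03 and 69.9 FPKM in KO and 70.04 and 67.5 FPKM in WT, against 20.5 to 23.8 FPKM for 1700021K19Rik over the 4 libraries. The 38 transcripts had a median log2 fold change of 0.07 and those that share exon bases with no other gene one of 0.05.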

How the data were processed

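RNA of 2 Fam46c KO and 2 WT testis libraries was analysed. FPKM were deposited by the authors, 1 table per library, per the file headers. Per the submitters' processing notes, TopHat2 2.0.6, Cufflinks 2.0.2, Cuffdiff and the build mm9 were used, though the step each served is not stated. The gene annotation, the strand setting and the treatment of multi-mapping fragments are unknown from the sources. Each table held 23021 rows and 22552 symbols, and FPKM of 259 repeated symbols (728 rows) were summed.

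KO was compared with WT by limma 3.58.1 (R 4.3.3) on log2(FPKM + 1) for the 12258 symbols that averaged 1 FPKM or more, with variances moderated along an intensity trend, 2 residual and 9.48 prior degrees of freedom, two-sided p and Benjamini-Hochberg adjustment over all symbols tested. The script was tested on simulated data. Tables were joined in Python 3.11.15 with pandas 2.3.3. Total FPKM ran from 489702 to 528756. Steps among values above 0.001 and under 0.1 FPKM put the other libraries at 0.781 (KO replicate 1), 0.905 (KO replicate 2) and 0.901 (WT replicate 1) of the depth of WT replicate 2. With lengths of GENCODE M21 genes of 1 transcript, a 1 kb transcript at 10 FPKM would hold very roughly 171 fragments in the shallowest library, a counting error of 7.65%.

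The transcripts and lists were chosen with earlier results of these data known. Named were the 12 highest in WT, those called, the 6 of smallest p without overlap in each direction, those of widest spread within a genotype, those nearest the threshold, up to 2 per sperm gene family and those on several rows. Role groups were assigned by hand from present RefSeq names and known functions. The alternatives covered the pseudocount, the filter, 3 rescalings, variance settings, repeated symbols, a replicate block, each library left out, and other choices of transcripts. Coordinates are GRCm38.p6 from RefSeq, not converted to mm9, and sequences are from RefSeq.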

Additional observations from a re-analysis of the deposited data

How the results depend on the processing

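The count of 0 calls among the 221 transcripts was the same under every alternative but the replicate block, which gave 1. At an unadjusted p under 0.05 the count was 12 as reported, 6 with no variance trend, 20 with the replicate block and 8 to 29 with 1 library left out (20 without WT replicate 2, 29 without KO replicate 1, 22 without KO replicate 2). Of the counts without 1 library, 0 to 2 were lower in KO, as were 2 of 11 with no filter. The replicate block, with 1 residual degree of freedom, called 1700072B07Rik (log2 fold change 0.78, limma adjusted p = 0.000194), whose adjusted p was 0.0603 to 0.641 under the other alternatives. The labels do not say if the repeat numbers pair the libraries. Differences between replicates 1 and 2 in KO and in WT correlated at -0.03 over 12258 genes, which cannot settle it. Over all symbols the block called 68, against 14, and other alternatives 1 (no filter) to 21 (without WT replicate 2), with 6 after median scaling or quantile normalization, 7 after total scaling, 8 with robust variance, 9 with a mean of at least 5 FPKM and 9 without KO replicate 2. The median over the set ran from 0.02 to 0.09 and did not change sign. Of 630 alternative values for the 42 named transcripts, 31 had the other sign. The shares of transcripts above 0, by class and setting, were added after the data were seen. With 2 libraries per group, a standard error of 0.12 to 0.38 limits what single transcripts can show.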

Other observations

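Below the threshold of 10 FPKM in WT, the 1700-series had 84 further symbols, of which 60 averaged 1 FPKM or more and were tested. Of these, 42 had a log2 fold change above 0, with a median of 0.09. The 40 lncRNAs among them had a median of 0.20, with 33 above 0. At an unadjusted p under 0.05 there were 8 higher and 2 lower in KO, all 10 lncRNAs (16.7% of the 60, against 0.914% higher and 1.11% lower among all tested symbols). 1700010J16Rik was at 9.13 and 10.96 FPKM in KO, against 6.55 and 6.16 FPKM in WT, with a log2 fold change of 0.58, an SE of 0.15 and a limma adjusted p of 0.703. For 1700025C18Rik, just under the threshold, the log2 fold change was 0.41 with an SE of 0.14, and limma gave an adjusted p of 1.00. The 1 transcript of the whole series that limma called was 1700016L21Rik, listed at 0 in both KO libraries and at 3.39 and 1.52 FPKM in the WT libraries (limma adjusted p = 0.0126). The filter on the mean keeps a low transcript through the group in which it is high. It kept 1700016L21Rik through the WT libraries alone, so this call and the counts above are descriptions.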
